A study of Mus musculus with 4 samples.

Results

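The enzymes of glycolysis, of the pentose phosphate pathway and of the tricarboxylic acid (TCA) cycle, with those that join them at pyruvate, were followed as 38 genes, chosen by symbol among the 22083 genes of the deposited table. They comprised 15 genes of glycolysis, 5 of pyruvate and lactate metabolism, 12 of the TCA cycle and its side reactions, and 6 of the pentose phosphate pathway. All 38 had a row in the table. RNA was sequenced from group 2 innate lymphoid cells (ILC2s), tissue-resident lymphocytes without antigen receptors that make type 2 cytokines. Cells were sorted from 2 tissues of wild-type C57BL/6 mice aged 9 weeks, the small intestinal lamina propria (SI-ILC2s, 2 libraries) and the white fat of the mesentery (WAT-ILC2s, 2 libraries). No treatment is named, and the labels give neither the number of mice behind each library nor the surface markers used to sort. The tissue and the way cells were freed from it cannot be told apart. The spread that p-values are measured against is thus that between 2 libraries, and it may be technical.

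Glycolysis splits glucose into pyruvate in the cytosol. Pyruvate is reduced to lactate, or enters the mitochondrion, where the pyruvate dehydrogenase complex turns it into acetyl-CoA for the TCA cycle. The pentose phosphate pathway branches off at glucose-6-phosphate and yields NADPH and ribose. Several steps have isozymes, products of separate genes that catalyse the same reaction with different kinetics or at different sites.

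Values are RPKM, reads scaled to gene length and library size, given for replicates 1 and 2 of each tissue in that order. A change is the SI-ILC2 mean less the WAT-ILC2 mean of log2(RPKM + 1), so that changes of low genes are understated, its error after ± is the standard error (SE), and a gene is called where its adjusted p is below 0.05 (limma with Benjamini-Hochberg adjustment over all 8230 genes tested). Each library held about 56000000 to 76700000 reads, judged from the steps between low values. The lineage gene Gata3 had 354 and 377 RPKM in SI-ILC2s, against 338 and 397 RPKM in WAT-ILC2s. The lowest value of any of the 11 ILC2 markers was 10.3 RPKM, for Il17rb in WAT-ILC2 replicate 2. Several of these markers differed between the tissues. Il17rb had 164 and 141 RPKM in SI-ILC2s, against 14.3 and 10.3 RPKM in WAT-ILC2s. Il1rl1 had 14.3 and 15.4 RPKM in SI-ILC2s, against 65.7 and 63.4 RPKM in WAT-ILC2s. Il17rb, Il13, Rora and Id2 were called higher in SI-ILC2s, and Il1rl1, Il7r and Ptprc lower. Gata3, Klrg1, Il5 and Areg were not called. Transcripts of red cells summed to 13.2 to 41.5 RPKM over 5 genes in SI-ILC2s, against 88.9 to 139.8 RPKM in WAT-ILC2s, led by Hba-a2 and Hba-a1. Sums were also lower in SI-ILC2s for markers of adipocytes (0.803 to 1.14 RPKM in SI-ILC2s, against 4.82 to 5.38 RPKM in WAT-ILC2s, led by Fabp4 and Lipe, with 7 of 8 genes below 1 RPKM in all libraries). The same order was seen for fibroblasts (0.462 to 0.532 RPKM in SI-ILC2s, against 4.48 to 9.88 RPKM in WAT-ILC2s, led by Dcn and Col3a1, 3 of 6 below 1), for macrophages and dendritic cells (1.26 to 1.86 RPKM in SI-ILC2s, against 4.86 to 7.66 RPKM in WAT-ILC2s, led by Lyz2 and Csf1r, 6 of 7 below 1) and for T cells (6.77 to 8.43 RPKM in SI-ILC2s, against 12.4 to 23.2 RPKM in WAT-ILC2s, led by Cd3g and Cd3e, 3 of 5 below 1). Sums overlapped for the intestinal epithelium (6.99 to 12.7 RPKM in SI-ILC2s, against 12.5 to 15.6 RPKM in WAT-ILC2s, led by Epcam and Lgals4, 5 of 9 below 1) and for endothelium (4.64 to 6.87 RPKM in SI-ILC2s, against 4.47 to 7.72 RPKM in WAT-ILC2s, led by Pecam1 and Cldn5, 2 of 5 below 1). B and plasma cell markers summed to 5.76 to 7.38 RPKM in SI-ILC2s, against 0.135 to 0.479 RPKM in WAT-ILC2s, led by Igj and Cd79a, with 3 of 4 below 1. The adipocyte gene Adipoq did not exceed 0.121 RPKM and the epithelial gene Vil1 did not exceed 0.519 RPKM in any library. The part of these cells in the differences below was not tested, and fewer cells of a type and less RNA per cell cannot be told apart in sorted bulk samples.

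Among the 35 members that passed the filter of at least 1 RPKM in at least 2 libraries, 3 were higher in SI-ILC2s and 14 were lower. This is 8.57% and 40% of the tested members, beside 17.9% and 29.6% of all genes tested, with 47.5% of all genes called in either direction. The higher genes were Pgam1, Hk2 and Mdh1, at 1.38 to 1.70 times the WAT-ILC2 mean. The lower genes were led by Pdk1, Eno1, Pfkl, Pfkm and Hk1, at 0.319 to 0.416 times the WAT-ILC2 mean. The median change was -0.29 over the members and -0.15 over all genes tested. For 8 members both SI-ILC2 values exceeded both WAT-ILC2 values and for 19 they were below both, where the same held for 29.8% and 45.9% of all genes tested. Pfkfb3, Aldoc and Rpia did not pass the filter, and Idh1 passed it only through its WAT-ILC2 libraries. Fewer genes were called without SI-ILC2 replicate 1 or without SI-ILC2 replicate 2, among the members and over all genes. The median change of the members was then -0.35 and -0.28, beside -0.15 and -0.19 over all genes tested. Median-of-ratios scaling gave 7 higher and 10 lower members, beside 1956 and 1817 of all 8230 genes. Equal sums gave 1 and 16, beside 1125 and 2891. These scalings put the median change of all genes at 0.00 and -0.26 and that of the members at -0.13 and -0.43. Of the 3 higher genes 0 and of the 14 lower genes 7 kept their call under every alternative that tested them.

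**Figure D1:**
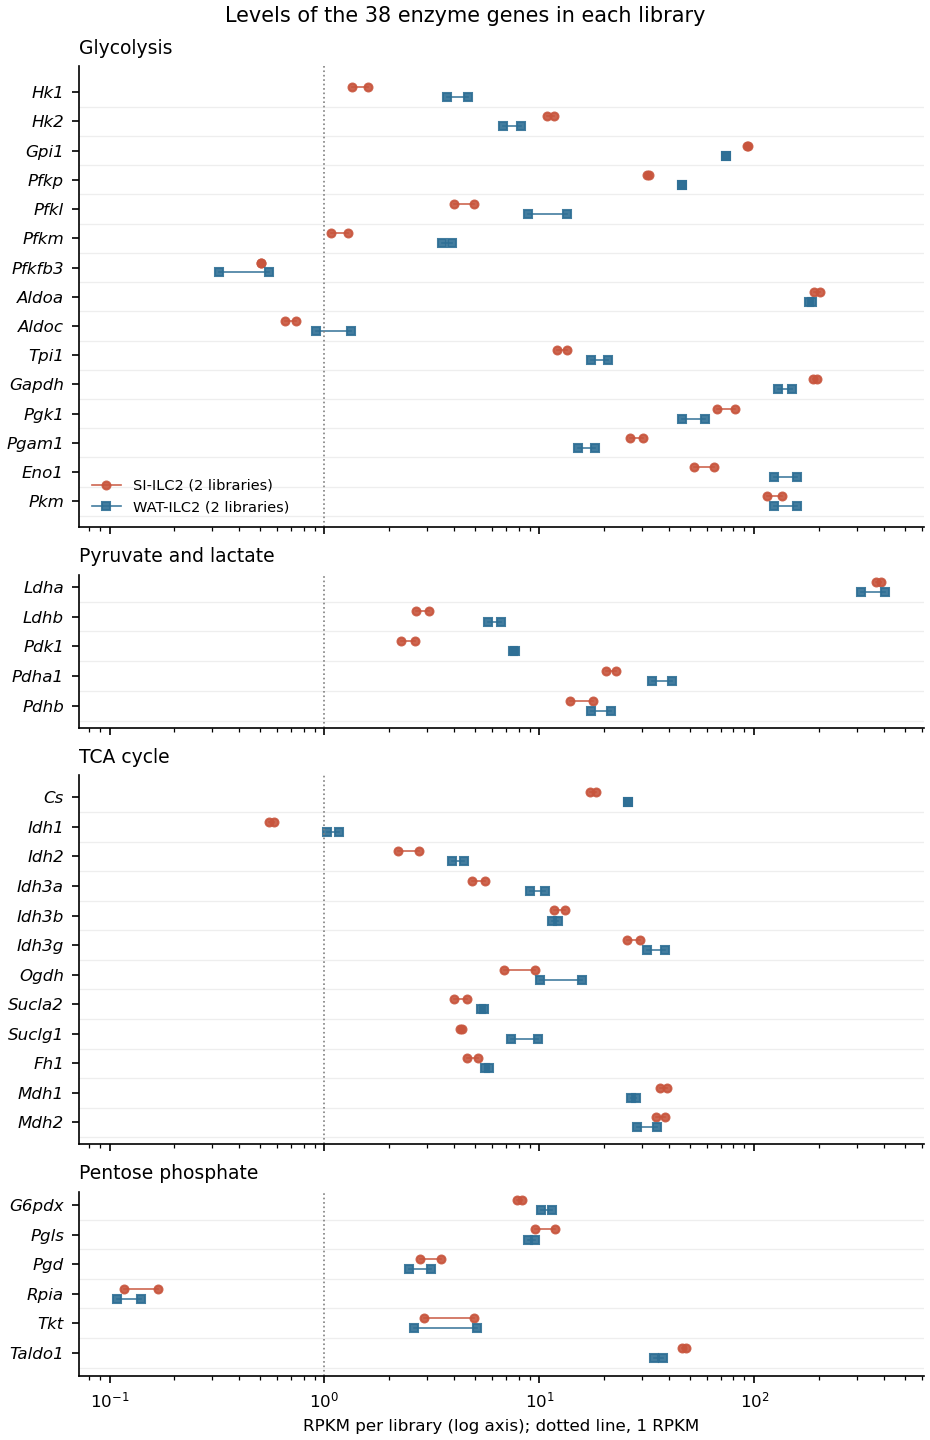
RPKM of the 38 enzyme genes in each library on a log axis, grouped by pathway, with SI-ILC2 libraries as circles drawn above WAT-ILC2 libraries as squares, and a line joining the libraries of a tissue. Levels run over more than 3 orders of magnitude, with Ldha at the top at 369 and 389 RPKM in SI-ILC2s, while Rpia stays below 1 RPKM in all 4 libraries.

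The promoters of the 2 called members with the largest change of log2(RPKM + 1) in each direction are shown, 250 bases before to 50 bases after the annotated start. This order depends on the added 1. With log2(RPKM + 0.1), Pfkm (-1.57) and Hk1 (-1.45) fell more than Eno1 (-1.26). They are from RefSeq (GRCm38.p6), 5′ to 3′ on the strand of the gene, and the most upstream start was taken where a gene has several. Capitals mark ACGTG and GCGTG on either strand, the letters at the core of sites bound by hypoxia-inducible factors. The windows are chr19:41911621-41911920 (plus strand) for Pgam1, chr6:82774405-82774704 (minus strand) for Hk2, chr2:71872974-71873273 (plus strand) for Pdk1 and chr4:150236458-150236757 (plus strand) for Eno1. In GENCODE the genes span 41911923 to 41918660 on chromosome 19 (Pgam1), 82725025 to 82774454 on chromosome 6 (Hk2), 71873224 to 71903858 on chromosome 2 (Pdk1) and 150236721 to 150248879 on chromosome 4 (Eno1). The RefSeq start equals the GENCODE start for Hk2 and Pdk1 and lies upstream of it for Pgam1 and Eno1. The Pgam1 window ends just before the GENCODE start.
Pgam1: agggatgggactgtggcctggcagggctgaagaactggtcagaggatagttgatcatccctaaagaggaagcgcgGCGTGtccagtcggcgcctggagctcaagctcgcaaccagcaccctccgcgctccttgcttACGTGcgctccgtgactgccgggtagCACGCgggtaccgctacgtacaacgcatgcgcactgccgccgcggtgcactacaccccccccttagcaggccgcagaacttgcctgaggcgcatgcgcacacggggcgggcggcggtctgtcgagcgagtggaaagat
Hk2: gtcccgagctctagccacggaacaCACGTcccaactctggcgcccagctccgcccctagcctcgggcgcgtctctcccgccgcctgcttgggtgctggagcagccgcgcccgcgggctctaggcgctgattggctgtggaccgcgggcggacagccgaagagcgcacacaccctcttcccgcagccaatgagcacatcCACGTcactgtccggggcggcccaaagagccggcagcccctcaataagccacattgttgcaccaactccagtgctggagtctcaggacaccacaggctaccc
Pdk1: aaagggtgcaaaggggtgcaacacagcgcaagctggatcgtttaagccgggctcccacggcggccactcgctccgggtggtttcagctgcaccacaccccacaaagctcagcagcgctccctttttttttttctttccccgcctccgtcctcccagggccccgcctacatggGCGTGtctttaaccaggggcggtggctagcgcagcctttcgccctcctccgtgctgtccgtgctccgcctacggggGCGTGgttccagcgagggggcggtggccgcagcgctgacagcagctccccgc
Eno1: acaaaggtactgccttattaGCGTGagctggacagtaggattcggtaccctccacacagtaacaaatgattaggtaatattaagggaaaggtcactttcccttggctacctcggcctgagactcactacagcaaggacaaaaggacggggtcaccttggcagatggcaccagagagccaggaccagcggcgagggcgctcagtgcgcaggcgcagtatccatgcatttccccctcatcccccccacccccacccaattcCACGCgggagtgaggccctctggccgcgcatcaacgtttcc
The Hk2 window held ACGTG 2 times and GCGTG 0 times. That of Pgam1 held them 1 and 2 times, and those of Pdk1 and Eno1 held GCGTG 2 times each and ACGTG 0 times. Across the 37 members with a promoter entry, 16 (43.2%) held ACGTG and 27 (73.0%) held GCGTG in at least 1 window, against 31.1% and 59.1% of the 6212 tested genes with an entry and 21.8% and 35.2% of all 27025 genes in the promoter table. ACGTG was found for 3 of 3 members higher in SI-ILC2s, for 2 of 13 that were lower and for 9 of 18 that were not called. GCGTG had the other order, with 1 of 3, 11 of 13 and 12 of 18, and either motif was found for 3 of 3, 11 of 13 and 15 of 18. ACGTG is also part of the E-box CACGTG, which 4 members (10.8%), 12.7% of the tested genes and 8.09% of all genes in the table held. Genes with several starts have several windows, with 3 windows for the higher, 21 for the lower and 28 for the uncalled members. The split by call was not tested, and of its 3 higher genes 0 kept their call under every alternative. A match is a description of letters, not of binding.

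Among the 13 tested glycolysis genes 2 were higher in SI-ILC2s and 6 were lower (15.4% and 46.2%, beside 17.9% and 29.6% of all genes tested). The counts were 5 and 4 after median-of-ratios scaling, where 1956 and 1817 of all 8230 genes were called. Without SI-ILC2 replicate 1 fewer genes were called, in glycolysis and over all genes. Isozymes parted at the hexokinase step, which traps glucose in the cell. Hk2, the inducible hexokinase, had 11.7 and 10.9 RPKM in SI-ILC2s, against 8.20 and 6.75 RPKM in WAT-ILC2s, and it rose by 0.54 ± 0.15 (SE, limma adjusted p = 0.027). Hk1, the broadly expressed hexokinase, had 1.35 and 1.59 RPKM in SI-ILC2s, against 3.73 and 4.67 RPKM in WAT-ILC2s. Hk1 fell by 1.07 ± 0.16 (limma adjusted p = 0.003), so the hexokinase genes changed in opposite directions with separated libraries for each. Both genes together summed to 13.1 and 12.5 RPKM in SI-ILC2s and to 11.9 and 11.4 RPKM in WAT-ILC2s. Hk2 made up 89.7% and 87.2% of this sum in SI-ILC2s, against 68.8% and 59.1% in WAT-ILC2s. The call of Hk2 was lost after rescaling to equal sums, without the filter on low values, and without SI-ILC2 replicate 1, SI-ILC2 replicate 2 or WAT-ILC2 replicate 2, with adjusted p-values up to 0.157. Exons of Hk1 overlap the antisense gene Hk1os, and the sources used here do not say whether reads were counted by strand.

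All 3 phosphofructokinase genes, whose enzyme commits sugar to glycolysis, were lower in SI-ILC2s. Pfkp, which encodes the platelet isozyme and was the most abundant, had 31.7 and 32.5 RPKM in SI-ILC2s, against 46.2 and 46.03 RPKM in WAT-ILC2s. Pfkl, the liver isozyme gene, had 4.02 and 4.96 RPKM in SI-ILC2s, against 8.86 and 13.4 RPKM in WAT-ILC2s. Pfkm, the muscle isozyme gene, had 1.29 and 1.08 RPKM in SI-ILC2s, against 3.91 and 3.52 RPKM in WAT-ILC2s. The libraries of the tissues were separated for each gene. Pfkp fell by 0.51 ± 0.13, Pfkl by 1.12 ± 0.21 and Pfkm by 1.11 ± 0.14 (SE), with limma adjusted p-values of 0.022, 0.0071 and 0.0018. The 3 genes together summed to 37.01 and 38.5 RPKM in SI-ILC2s and to 58.96 and 62.9 RPKM in WAT-ILC2s, and Pfkp held 85.6% and 84.3% of the sum in SI-ILC2s, against 78.3% and 73.2% in WAT-ILC2s. The call of Pfkp was lost after median-of-ratios scaling, without the filter and without SI-ILC2 replicate 1, SI-ILC2 replicate 2 or WAT-ILC2 replicate 1 (adjusted p up to 0.178), while those of Pfkl and Pfkm were kept under every alternative that tested them. Exons of Pfkm and Pfkp overlap Senp1 and Pitrm1 on the opposite strand. Pfkfb3, which makes the allosteric activator of phosphofructokinase, stayed at 0.507 and 0.504 RPKM in SI-ILC2s, against 0.554 and 0.325 RPKM in WAT-ILC2s.

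**Figure D2:**
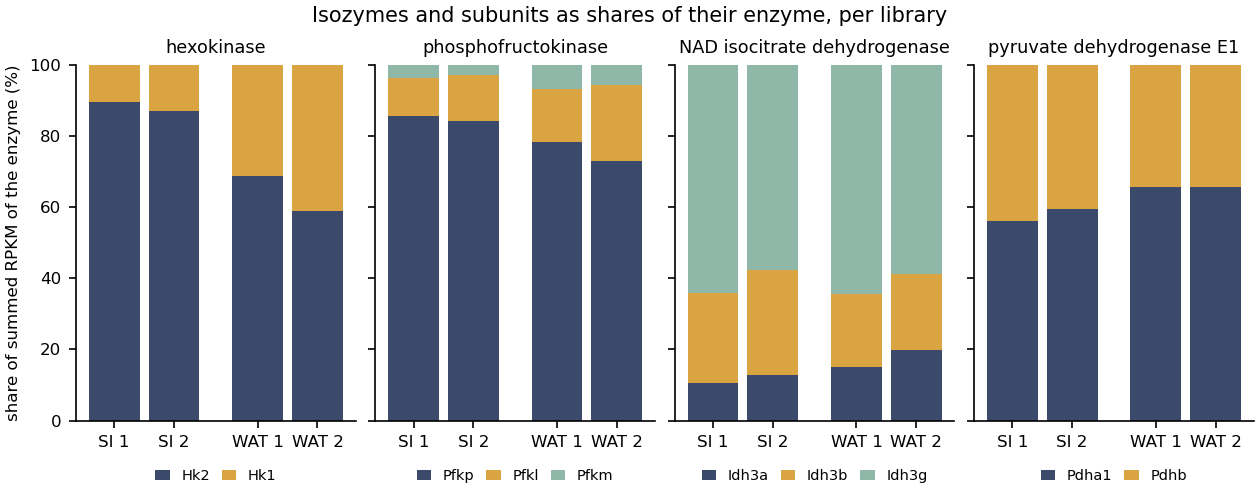
Share of each gene in the summed RPKM of its enzyme (percent, bars stacked from 0 to 100) for hexokinase, phosphofructokinase, NAD-dependent isocitrate dehydrogenase and the E1 part of pyruvate dehydrogenase, with the 2 SI-ILC2 libraries left of the 2 WAT-ILC2 libraries. The share of Hk2 is 89.7% and 87.2% in SI-ILC2s, against 68.8% and 59.1% in WAT-ILC2s, and the share of Pfkp is higher in both SI-ILC2 libraries.

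Of the other genes of the sugar phosphate steps, Tpi1 was lower in SI-ILC2s and Gpi1 and Aldoa were not called, though their SI-ILC2 values lay above those of WAT-ILC2s. Gpi1, glucose-6-phosphate isomerase, had 93.3 and 91.99 RPKM in SI-ILC2s, against 73.9 and 73.6 RPKM in WAT-ILC2s (change 0.33 ± 0.14, limma adjusted p = 0.1). Aldoa, the main aldolase gene, had 202 and 190.2 RPKM in SI-ILC2s, against 181 and 185 RPKM in WAT-ILC2s (change 0.10, 95% confidence interval -0.28 to 0.48). The brain-type aldolase gene Aldoc did not exceed 1.34 RPKM and made up at most 0.735% of the aldolase sum. Tpi1, triosephosphate isomerase, had 13.5 and 12.1 RPKM in SI-ILC2s, against 20.9 and 17.5 RPKM in WAT-ILC2s. Tpi1 fell by 0.54 ± 0.15 (SE, limma adjusted p = 0.028), a call lost with median-of-ratios scaling, without the filter and without SI-ILC2 replicate 1, SI-ILC2 replicate 2 or WAT-ILC2 replicate 1 (adjusted p up to 0.162). Exons of Tpi1 overlap Spsb2 on the opposite strand.

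In the later steps of the pathway, which return ATP, the neighbours Pgam1 and Eno1 were called in opposite directions. Gapdh, glyceraldehyde-3-phosphate dehydrogenase, had 188 and 196 RPKM in SI-ILC2s, against 129 and 149.5 RPKM in WAT-ILC2s, and Pgk1, phosphoglycerate kinase, had 81.2 and 67.2 RPKM in SI-ILC2s, against 59.1 and 46.2 RPKM in WAT-ILC2s. For both genes the SI-ILC2 libraries lay above the WAT-ILC2 libraries, and the changes of 0.46 ± 0.16 and 0.49 ± 0.18 missed the threshold (limma adjusted p = 0.056 and 0.068), which both passed after median-of-ratios scaling. Pgam1, phosphoglycerate mutase, had 30.3 and 26.3 RPKM in SI-ILC2s, against 18.1 and 15.1 RPKM in WAT-ILC2s. It rose by 0.74 ± 0.16 (SE, limma adjusted p = 0.011), the largest rise of the tested members, and its call was lost only without SI-ILC2 replicate 1 (adjusted p up to 0.0873 over all alternatives). Eno1, the enolase gene of the next step, had 52.2 and 64.9 RPKM in SI-ILC2s, against 123 and 159 RPKM in WAT-ILC2s. Eno1 fell by 1.25 ± 0.19 (SE, limma adjusted p = 0.0036), and this call was kept under all 12 alternatives. Within a library Eno1 was 1.72 and 2.47 times as abundant as Pgam1 in SI-ILC2s, against 6.79 and 10.5 times in WAT-ILC2s. Pkm, the pyruvate kinase gene, had 115 and 134 RPKM in SI-ILC2s, against 124 and 159 RPKM in WAT-ILC2s, with overlapping libraries (change -0.17, limma adjusted p = 0.48, 95% confidence interval -0.63 to 0.28). A value per gene does not separate the M1 and M2 splice forms of Pkm.

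Near-identical copies bear on several of these genes, since the sources used here do not say how reads with several matches were treated. Eno1 shared at least 200 aligned bases at 95% identity or more with 3 other annotated genes, which covered 85.6% of its transcript. One of them, the retrogene Eno1b, had a row of its own, at 7.70 and 9.31 RPKM in SI-ILC2s, against 18.7 and 21.2 RPKM in WAT-ILC2s. Eno1 was 6.78 and 6.96 times as abundant as Eno1b in SI-ILC2s, against 6.56 and 7.50 times in WAT-ILC2s, and the sum of both was 59.9 and 74.2 RPKM in SI-ILC2s and 142 and 179.8 RPKM in WAT-ILC2s. Gapdh matched 78 other genes by the same criterion, of which 75 are annotated as pseudogenes. Pgk1 and Ldha matched 4 each, Pkm matched 2, and Gpi1, Tpi1, Pgam1, Ldhb and Pdhb matched 1 each. The copy of Pgk1 with a row, Pgk1-rs7, had 27.5 and 23.9 RPKM in SI-ILC2s, against 20.2 and 15.5 RPKM in WAT-ILC2s. The levels of these genes are therefore less certain than those of genes without such copies, among them Hk1, Hk2, Pfkl, Pfkm and Pdk1.

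**Figure D3:**
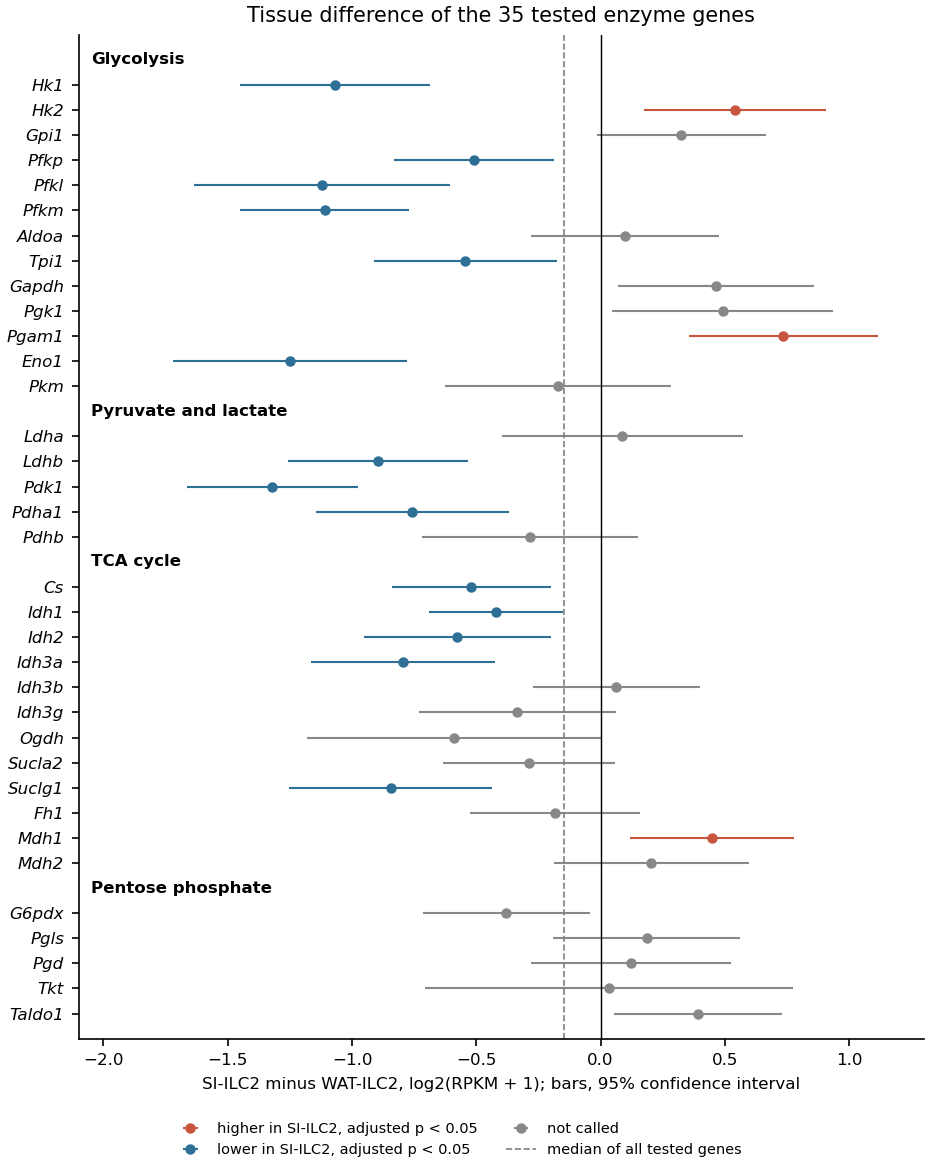
Change of the 35 tested enzyme genes, SI-ILC2s less WAT-ILC2s in log2(RPKM + 1), with 95% confidence intervals from limma, coloured by call, and the median of all 8230 tested genes as a dashed line at -0.15. Pgam1 and Eno1, neighbours in glycolysis, lie at 0.74 and -1.25, and none of the 5 tested pentose phosphate genes is called.

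At the end of glycolysis, Ldha, the lactate dehydrogenase subunit that favours lactate, was the most abundant member. It had 369 and 389 RPKM in SI-ILC2s, against 313 and 407 RPKM in WAT-ILC2s, with overlapping libraries (change 0.09, 95% confidence interval -0.40 to 0.57, limma adjusted p = 0.74). Ldhb, the subunit that favours pyruvate, had 3.06 and 2.67 RPKM in SI-ILC2s, against 6.63 and 5.77 RPKM in WAT-ILC2s, and fell by 0.90 ± 0.15 (SE, limma adjusted p = 0.0045) with separated libraries. Ldhb made up 0.823% and 0.682% of the lactate dehydrogenase sum in SI-ILC2s, against 2.08% and 1.40% in WAT-ILC2s.

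At the pyruvate dehydrogenase complex, the entry to the TCA cycle, a catalytic subunit and a kinase that acts on it were lower in SI-ILC2s. Pdha1, its E1 alpha subunit, had 22.8 and 20.5 RPKM in SI-ILC2s, against 41.3 and 33.5 RPKM in WAT-ILC2s, and fell by 0.76 ± 0.16 (SE, limma adjusted p = 0.011), a call lost without SI-ILC2 replicate 2 (adjusted p = 0.0693). Exons of Pdha1 overlap Map3k15 on the opposite strand, which had 3.92 and 3.66 RPKM in SI-ILC2s, against 7.60 and 6.93 RPKM in WAT-ILC2s. Pdhb, the E1 beta subunit, had 17.8 and 13.9 RPKM in SI-ILC2s, against 21.6 and 17.4 RPKM in WAT-ILC2s, with overlapping libraries (limma adjusted p = 0.23). Pdk1, a kinase that switches the complex off, had 2.26 and 2.63 RPKM in SI-ILC2s, against 7.51 and 7.67 RPKM in WAT-ILC2s. It fell by 1.32 ± 0.14 (SE, limma adjusted p = 0.0011), the largest change of the tested members, and kept its call under all 12 alternatives. Of the 5 members around pyruvate, 0 were higher in SI-ILC2s and 3 were lower, beside 17.9% and 29.6% of all genes tested.

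Genes of the same pathways outside the 38 members were followed as lists of 28 genes of glucose uptake and glycolysis, 27 of pyruvate and the TCA cycle, and 10 of the pentose phosphate pathway. Of the 39 that passed the filter, 7 were higher in SI-ILC2s and 11 were lower, or 17.9% and 28.2%, beside 17.9% and 29.6% of all genes tested. The count of lower genes was 6 after median-of-ratios scaling (with 7 higher) and 7 after quantile normalization, beside 1817 and 1886 of all 8230 genes. Without SI-ILC2 replicate 1 fewer genes were lower, on these lists and over all genes. By list, 2 higher and 5 lower of 12 tested came from uptake and glycolysis, 5 and 6 of 22 from pyruvate and the TCA cycle, and 0 and 0 of 5 from the pentose phosphate pathway. Within the pyruvate dehydrogenase complex, Dlat, the E2 subunit, had 2.43 and 2.56 RPKM in SI-ILC2s, against 5.97 and 8.29 RPKM in WAT-ILC2s (change -1.20, limma adjusted p = 0.0031). Dld, the E3 subunit that other dehydrogenase complexes share, had 24.1 and 24.4 RPKM in SI-ILC2s, against 13.1 and 12.3 RPKM in WAT-ILC2s (change 0.88, limma adjusted p = 0.0032). Pdp1, the phosphatase that reverses the action of the kinases, had 6.05 and 6.57 RPKM in SI-ILC2s, against 1.28 and 0.939 RPKM in WAT-ILC2s (change 1.80, limma adjusted p = 5.5e-04). The ratio of Pdk1 to Pdp1 was 0.374 and 0.40 in SI-ILC2s, against 5.89 and 8.17 in WAT-ILC2s. The libraries of the tissues were separated for each of these 3 genes, which kept their calls under all 12 alternatives.

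Of the 7 carriers of glucose and of monocarboxylates on these lists, 2 were higher in SI-ILC2s, 3 were lower, Slc2a8 was not called and Slc2a4 did not pass the filter. Slc2a1, the gene of the glucose transporter GLUT1, had 13.9 and 19.5 RPKM in SI-ILC2s, against 24.1 and 36.6 RPKM in WAT-ILC2s (change -0.81 ± 0.25, limma adjusted p = 0.035), a call lost without SI-ILC2 replicate 1, without the filter and after median-of-ratios scaling (adjusted p up to 0.171). Slc2a3, which encodes GLUT3, had 2.42 and 3.09 RPKM in SI-ILC2s, against 12.3 and 15.9 RPKM in WAT-ILC2s (change -2.002 ± 0.18, limma adjusted p = 6.5e-04). Slc2a6, a further member of the family that was picked after its values were seen, had 3.01 and 4.94 RPKM in SI-ILC2s, against 0.156 and 0.165 RPKM in WAT-ILC2s. The monocarboxylate transporter gene Slc16a1 was higher in SI-ILC2s (13.003 and 15.5 RPKM, against 8.02 and 8.15 RPKM in WAT-ILC2s, change 0.74, limma adjusted p = 0.0081), though not without SI-ILC2 replicate 2 (adjusted p = 0.0626). Slc16a3, the carrier known for lactate export, was lower, with 0.223 and 0.505 RPKM in SI-ILC2s, against 2.10 and 4.25 RPKM in WAT-ILC2s (change -1.57, limma adjusted p = 0.0042). Slc2a6 and Slc16a3 passed the filter only through the tissue where they were higher. The libraries of the tissues were separated for all 5 called carriers. Slc2a8, which encodes GLUT8, had 2.96 and 4.42 RPKM in SI-ILC2s, against 4.78 and 4.95 RPKM in WAT-ILC2s (limma adjusted p = 0.17).

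**Figure D4:**
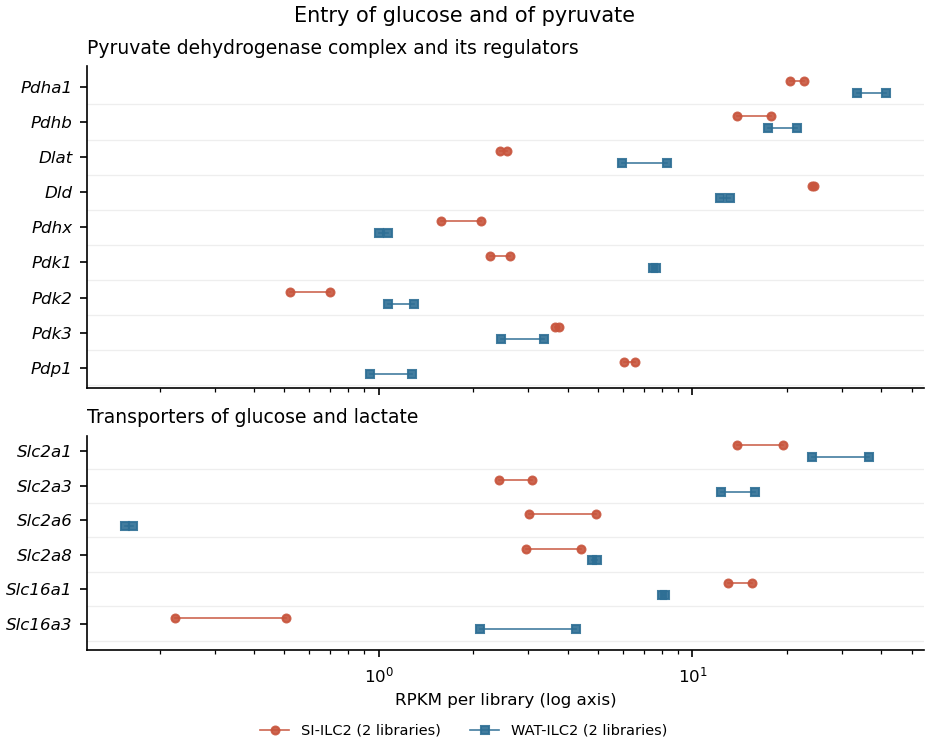
RPKM per library on a log axis for genes of the pyruvate dehydrogenase complex, of kinases and a phosphatase that act on it, and of carriers of glucose and lactate. SI-ILC2 libraries are circles above WAT-ILC2 libraries as squares. Pdk1 and Pdp1 part in opposite directions, with Pdk1 at 2.26 and 2.63 RPKM in SI-ILC2s, against 7.51 and 7.67 RPKM in WAT-ILC2s, and Pdp1 at 6.05 and 6.57 RPKM in SI-ILC2s, against 1.28 and 0.939 RPKM in WAT-ILC2s.

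In the TCA cycle group, 1 of 12 genes was higher in SI-ILC2s and 5 were lower (8.33% and 41.7%, beside 17.9% and 29.6% of all genes tested), with a median change of -0.38, against -0.15 over all genes tested. The count of lower genes was 3 after median-of-ratios scaling, where the median change was -0.24 and 1817 of all 8230 genes were lower. Without SI-ILC2 replicate 1 fewer genes were lower, in this group and over all genes. Cs, citrate synthase, which starts the cycle, had 17.2 and 18.3 RPKM in SI-ILC2s, against 25.9 and 25.8 RPKM in WAT-ILC2s (change -0.52 ± 0.13, limma adjusted p = 0.02), a call lost after median-of-ratios scaling and without SI-ILC2 replicate 1 or replicate 2 (adjusted p up to 0.166). Idh3a, the catalytic subunit of the NAD-dependent isocitrate dehydrogenase, had 4.88 and 5.61 RPKM in SI-ILC2s, against 9.05 and 10.6 RPKM in WAT-ILC2s (change -0.79 ± 0.15, limma adjusted p = 0.0073, and 0.0528 without SI-ILC2 replicate 1). Its partners Idh3b (11.7 and 13.1 RPKM in SI-ILC2s, against 12.2 and 11.4 in WAT-ILC2s) and Idh3g (29.5 and 25.5 RPKM in SI-ILC2s, against 38.5 and 31.5 in WAT-ILC2s) were not called, and Idh3a made up 10.6% and 12.7% of the subunits' sum in SI-ILC2s, against 15.1% and 19.8% in WAT-ILC2s. Suclg1, the alpha subunit of succinyl-CoA ligase, had 4.35 and 4.27 RPKM in SI-ILC2s, against 9.83 and 7.39 RPKM in WAT-ILC2s (change -0.84 ± 0.17, limma adjusted p = 0.0085). Of the 6 called genes of this group, Suclg1 was the one whose call was kept under all 12 alternatives. Suclg1 pairs with Sucla2 in the ATP-forming enzyme, and Sucla2 had 3.998 and 4.58 RPKM in SI-ILC2s, against 5.35 and 5.54 RPKM in WAT-ILC2s (limma adjusted p = 0.14).

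The NADP-dependent isocitrate dehydrogenases, which act beside the cycle, were also lower. Idh2, the mitochondrial form, had 2.20 and 2.75 RPKM in SI-ILC2s, against 3.90 and 4.44 RPKM in WAT-ILC2s (change -0.58, limma adjusted p = 0.024), a call lost after median-of-ratios scaling and without SI-ILC2 replicate 1 or WAT-ILC2 replicate 2 (adjusted p up to 0.158). Idh1, the cytosolic form, had 0.554 and 0.58 RPKM in SI-ILC2s, against 1.17 and 1.02 RPKM in WAT-ILC2s (change -0.42, limma adjusted p = 0.023), where passing the filter depended on its WAT-ILC2 values, and the call was lost without SI-ILC2 replicate 1 or replicate 2, without the filter and after quantile normalization (adjusted p up to 0.186). Mdh1, the cytosolic malate dehydrogenase of the malate-aspartate shuttle, rose instead, with 39.1 and 36.4 RPKM in SI-ILC2s, against 28.1 and 26.7 RPKM in WAT-ILC2s (change 0.45 ± 0.14, limma adjusted p = 0.036). This call did not hold after rescaling to equal sums, without the filter or when any of the 4 libraries was left out, with adjusted p-values up to 0.25, and exons of Mdh1 overlap Wdpcp on the opposite strand. Mdh2, its mitochondrial counterpart, had 38.6 and 34.8 RPKM in SI-ILC2s, against 35.3 and 28.5 RPKM in WAT-ILC2s, with an adjusted p of 0.33 from limma. Ogdh, the E1 subunit of the oxoglutarate dehydrogenase complex, had 6.82 and 9.53 RPKM in SI-ILC2s, against 10.1 and 15.8 RPKM in WAT-ILC2s, and Fh1, fumarate hydratase, had 5.19 and 4.61 RPKM in SI-ILC2s, against 5.81 and 5.57 RPKM in WAT-ILC2s. Both had separated libraries, and neither passed the test (limma adjusted p = 0.091 and 0.32).

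Outside the members, Me2, the mitochondrial malic enzyme, had 5.71 and 7.29 RPKM in SI-ILC2s, against 15.1 and 17.4 RPKM in WAT-ILC2s (change -1.21, limma adjusted p = 0.0023). Of the subunits of succinate dehydrogenase, Sdha and Sdhb had overlapping libraries and were not called (limma adjusted p = 0.34 and 0.39). Sdhd and Sdhc were called in opposite directions (limma adjusted p = 0.012 and 0.016). Sdhd had 9.90 and 10.4 RPKM in SI-ILC2s, against 6.53 and 5.13 RPKM in WAT-ILC2s. Sdhc had 5.68 and 5.80 RPKM in SI-ILC2s, against 10.97 and 8.63 RPKM in WAT-ILC2s. These calls were lost without SI-ILC2 replicate 2, that of Sdhc also without SI-ILC2 replicate 1, with adjusted p-values up to 0.077. Dlst, the E2 subunit of oxoglutarate dehydrogenase, had 17.1 and 17.1 RPKM in SI-ILC2s, against 11.7 and 11.5 RPKM in WAT-ILC2s (change 0.52, limma adjusted p = 0.019), a call lost without SI-ILC2 replicate 1 or replicate 2 and after rescaling to equal sums (adjusted p up to 0.129).

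Among the pentose phosphate genes, 0 of 5 tested passed the limma test in either direction, and 2 had an unadjusted p under 0.05, G6pdx and Taldo1. G6pdx, glucose-6-phosphate dehydrogenase, which controls entry to the pathway, had 7.88 and 8.27 RPKM in SI-ILC2s, against 11.4 and 10.2 RPKM in WAT-ILC2s (change -0.38 ± 0.14, limma adjusted p = 0.063). Taldo1, transaldolase of the non-oxidative branch, was the most abundant, with 48.3 and 46.3 RPKM in SI-ILC2s, against 37.7 and 34.01 RPKM in WAT-ILC2s (change 0.39 ± 0.14, limma adjusted p = 0.06). The libraries of the tissues were separated for both genes, in opposite directions. G6pdx was called after rescaling to equal sums and Taldo1 after median-of-ratios scaling. Pgls, which opens the lactone, had 11.8 and 9.50 RPKM in SI-ILC2s, against 9.55 and 8.87 RPKM in WAT-ILC2s, and Pgd, the second NADPH-forming enzyme, had 2.78 and 3.48 RPKM in SI-ILC2s, against 2.46 and 3.12 RPKM in WAT-ILC2s. The libraries of both genes overlapped (limma adjusted p = 0.36 and 0.57). Tkt, transketolase, had 2.90 and 4.95 RPKM in SI-ILC2s, against 2.61 and 5.15 RPKM in WAT-ILC2s, so its replicates differed more than its tissues (95% confidence interval of the change -0.70 to 0.77). Rpia, ribose-5-phosphate isomerase, did not exceed 0.167 RPKM in any library. Exons of G6pdx overlap Ikbkg on the opposite strand, and those of Pgls and Tkt overlap Fam129c and Mir3076 on the same strand.

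Sums over each pathway were set beside these. The glycolysis genes summed to 826 and 835 RPKM in SI-ILC2s and to 801 and 880.2 RPKM in WAT-ILC2s, and the pyruvate and lactate genes to 415 and 429 RPKM in SI-ILC2s and to 390 and 471 RPKM in WAT-ILC2s, with overlapping libraries in both cases. As a share of all RPKM, the glycolysis genes were separated, at 0.521% and 0.552% in SI-ILC2s, against 0.565% and 0.644% in WAT-ILC2s. Such shares divide by the column sum of each library, which was larger in both SI-ILC2 libraries than in both WAT-ILC2 libraries. The TCA cycle group summed to 164 and 160.03 RPKM in SI-ILC2s and to 185 and 174 RPKM in WAT-ILC2s, and the pentose phosphate genes to 73.8 and 72.7 RPKM in SI-ILC2s and to 63.9 and 61.5 RPKM in WAT-ILC2s. The libraries of the tissues were separated for both the TCA and the pentose phosphate sums. By level, Mdh1, Mdh2 and Idh3g made up most of the TCA sum and Taldo1 most of the pentose phosphate sum. The means of Mdh1 and Mdh2 were higher in SI-ILC2s, against the direction of the TCA sum, and that of Idh3g was lower. All 38 genes summed to 1479 and 1497 RPKM in SI-ILC2s and to 1440.02 and 1587 RPKM in WAT-ILC2s, which overlap, and made up 0.932% and 0.989% of all RPKM in SI-ILC2s, against 1.02% and 1.16% in WAT-ILC2s, which do not overlap. An exact permutation test of such a sum, with 2 libraries a tissue, cannot give a two-sided p below 0.333, so the sums and shares are descriptions.

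Genes of regulators of these pathways were read beside them. Epas1 and Hif1a, the genes of hypoxia-inducible factors 2 alpha and 1 alpha, were both higher in SI-ILC2s. Epas1 had 63.2 and 74.1 RPKM in SI-ILC2s, against 1.83 and 1.79 RPKM in WAT-ILC2s (change 4.63, limma adjusted p = 4.9e-05). Hif1a had 19.4 and 33.5 RPKM in SI-ILC2s, against 8.17 and 13.5 RPKM in WAT-ILC2s (change 1.20, limma adjusted p = 0.021), a call lost without SI-ILC2 replicate 2 (adjusted p = 0.0609). Both genes had separated libraries, and protein was not measured. Myc, whose product activates many glycolytic genes, had 36.02 and 36.4 RPKM in SI-ILC2s, against 14.2 and 14.5 RPKM in WAT-ILC2s (limma adjusted p = 9.4e-04). Txnip, whose product restrains glucose uptake and whose gene is known to respond to sugar phosphates, had 50.02 and 55.03 RPKM in SI-ILC2s, against 121 and 109 RPKM in WAT-ILC2s (limma adjusted p = 0.0023). Tfam, whose product drives transcription of the mitochondrial genome, had 7.02 and 7.22 RPKM in SI-ILC2s, against 4.86 and 3.20 RPKM in WAT-ILC2s (limma adjusted p = 0.024, up to 0.0723 without 1 library). Arnt, Mlxip and Nrf1 were not called, and Mlxipl and Ppargc1a did not pass the filter.

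**Figure D5:**
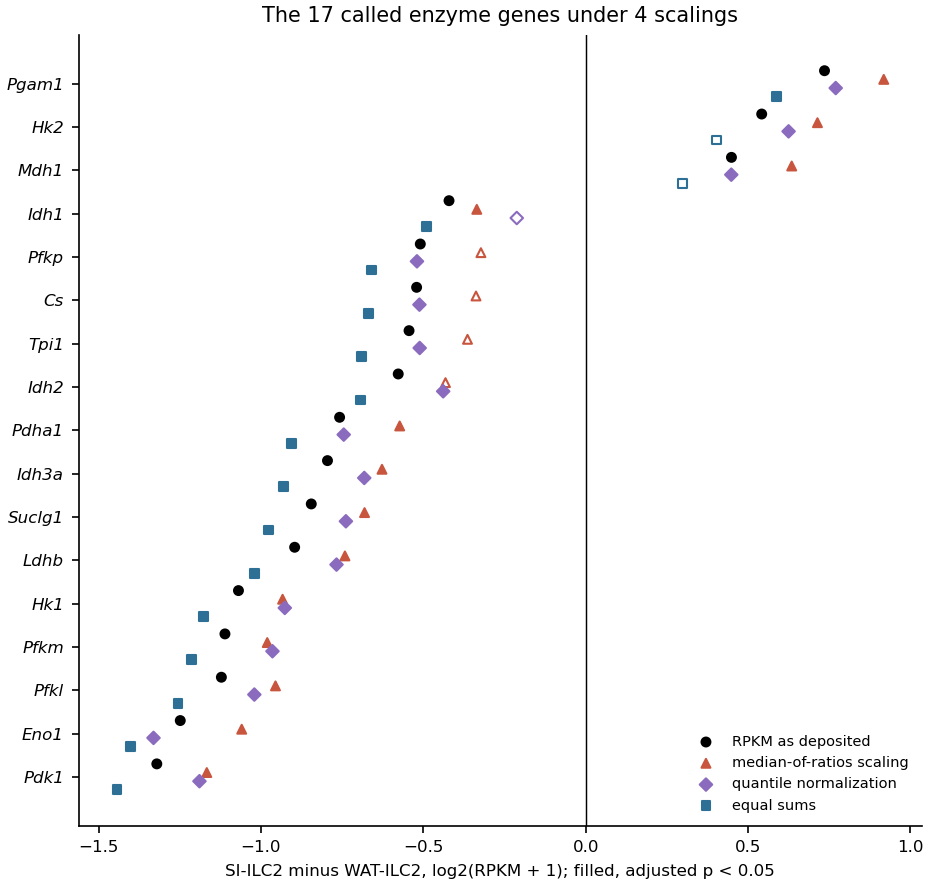
Change of the 17 called enzyme genes, SI-ILC2s less WAT-ILC2s in log2(RPKM + 1), with RPKM as deposited and after 3 other scalings of the libraries, filled where the adjusted p is below 0.05. No gene changes side under these scalings, and the calls of Hk2 and Mdh1 are lost after rescaling to equal sums, those of Pfkp, Cs, Tpi1 and Idh2 after median-of-ratios scaling and that of Idh1 after quantile normalization.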

How the data were processed

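The authors deposited RPKM values for 22083 genes, as 1 column for each library. Per the submitters' processing notes, the tools were STAR 2.6.0 and featureCounts 1.6.0 of Subread, and the build was GRCm38 (mm10), with annotation, strand setting and treatment of multi-mapped reads not given in the sources used here. RPKM does not correct for composition, so transcripts that fill much of a library depress the rest. Column sums were 158718 and 151345 in SI-ILC2s, against 141803 and 136705 in WAT-ILC2s. The predicted gene Gm10800 held 5.42% and 5.78% of them in SI-ILC2s, against 1.68% and 3.73% in WAT-ILC2s.

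Groups and replicate numbers came from the sample titles. No count model was applied, as RPKM are normalized values. Genes with at least 1 RPKM in at least 2 libraries (8230) were compared as log2(RPKM + 1) with limma 3.58.1 under R 4.3.3, as SI-ILC2s less WAT-ILC2s, with a variance trend and no covariate (all 4 libraries, 4.39 prior and 2 residual degrees of freedom), with Benjamini-Hochberg adjustment over all of them. The fit was tested on simulated data first. Depth was estimated from single-exon genes, where 87.5% to 89.6% of low values fell within 0.1 of whole reads at the depth given. In genes with at least 200 reads, replicates differed by 15.4 (SI-ILC2) and 18.2 (WAT-ILC2) times the sampling noise of read pairs, so none was treated as a copy. Overlapping exons were read from GENCODE M21, and copies from megablast matches of 1 transcript a member against GENCODE transcripts. Beyond the overlaps named above, exons of Gpi1, Gapdh and Idh3b overlap Gm26762, Iffo1 and Nop56 on the opposite strand. Those of Pfkm and Pkm overlap Gm26513 and Gm49759 on the same strand. Aldoa, a symbol of 2 annotated genes, was not looked up. Overlaps of genes outside the members, such as Hif1a with Gm49321 on the same strand, are not listed.

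The members and lists were chosen with earlier results of these data known. All members are named. Of the other lists the text gives called genes with a mean of at least 5 RPKM in a tissue, up to 5 a direction, and a few set genes. Further subunits, kinases, phosphatases, carriers and ILC2 markers are given beside them. Older symbols were used for 3 list genes. Alternatives were other pseudocounts, filters, scalings, variance models, the replicate number as a block, and leaving out each library. Promoter sequences are RefSeq's (GRCm38.p6). Tables and figures were made in Python 3.11.15 using numpy 2.4.6, pandas 2.3.3 and matplotlib 3.10.9.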

Additional observations from a re-analysis of the deposited data

How the results depend on the processing

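No called member changed direction under any of the 12 alternatives. Of the 14 lower members, 7 (Hk1, Pfkl, Pfkm, Eno1, Ldhb, Pdk1 and Suclg1) kept their call under every alternative that tested them, and 0 of the 3 higher members did. Of the 18 members not called, 8 were called under none, namely Aldoa, Pkm, Ldha, Idh3b, Fh1, Pgls, Pgd and Tkt. Counts that moved by more than 1.5 times follow, and their causes were not tested beyond the construction of each alternative.

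With median-of-ratios scaling, which put the median change of all genes at 0.0015 in place of -0.15, 7 members were higher, 5 of them in glycolysis and 1 in the pentose phosphate pathway, 3 TCA cycle genes were lower, and 6 other pathway genes were lower. After rescaling to equal sums (median -0.26), 1 member was higher, in glycolysis, 0 TCA cycle genes were higher, and 1 pentose phosphate gene was lower. With quantile normalization 7 other pathway genes were lower. Higher genes made up 37.6% of all calls (1470 and 2436 genes), against 51.8% (1956 and 1817), 28% (1125 and 2891) and 48.4% (1772 and 1886) after these 3 scalings. Without the filter, 1 member was higher, in glycolysis, and 0 in the TCA cycle, beside 1300 of all 21851 genes then tested. With a filter at 5 RPKM, which tested fewer genes, 899 genes were higher and 1182 lower, with 3 TCA cycle genes lower.

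Leaving out 1 library gave 745 to 1549 higher and 1439 to 1995 lower genes over all genes, 0 to 3 higher and 8 to 12 lower members, 0 to 3 and 4 to 6 in glycolysis, 0 to 0 and 2 to 3 around pyruvate, 0 to 0 and 1 to 5 in the TCA cycle, 0 to 0 and 0 to 0 in the pentose phosphate pathway, and 3 to 7 and 4 to 10 other pathway genes. The lowest counts came without SI-ILC2 replicate 1 for members in both directions. The tissue left with 1 library was then assumed to vary like the other.

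The titles give both tissues replicate numbers 1 and 2, and nothing says what a number marks. Deviations of same-numbered libraries from their tissue means correlated at 0.57 across genes. With the replicate block, 2271 genes were higher and 3430 lower over all 8230 genes, in place of 1470 and 2436. Among the members 8 were higher (5 in glycolysis, 2 in the TCA cycle and 1 in the pentose phosphate pathway). Beside that wider change, 8 TCA cycle genes, 1 pentose phosphate gene and 22 other pathway genes were lower. The fit then has 1 residual degree of freedom.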
